A study of Mus musculus with 12 samples.

Results

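Solute carriers are the membrane proteins that move amino acids, sugars, ions, metals, nucleotides and lipids into cells and between organelles. The set described here holds the genes whose only annotated symbol is Slc, a number, the letter a, b or o, and a further number. It comprised 140 of the 8251 genes measured, from 39 numbered families and 173 probe sets on the array. RNA was measured on 12 Affymetrix expression arrays of cell suspensions from the thymus of mice on a C57Bl/6 background. Of these, 8 arrays held leukemic cells of TEL-JAK2 mice that were terminally ill, while the other 4 were of wild-type thymocytes taken at an age of 2 months. TEL-JAK2 is a fusion of the transcription factor TEL (Etv6) with the tyrosine kinase Jak2. The age of the leukemic mice, and the promoter and cell type that drive the fusion, are not stated in the labels. The wild-type mice carried neither the fusion nor a treatment that the labels mention. Most array titles hold a number, but the labels do not tell whether each array is of its own animal, and the p-values therefore speak only of the spread among these arrays, and the number of arrays limits the precision.

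Solute carrier families are numbered by sequence, and members of a family often share a kind of substrate. Most act as uniporters, cotransporters or exchangers that are driven by gradients of the substrate, sodium, protons or chloride. Some amino acid transporters are heterodimers: light chains such as Slc7a5, which carries large neutral amino acids, and Slc7a6, which exchanges cationic for neutral amino acids, pair with the heavy chain Slc3a2 (CD98). In developing and activated T cells, amino acid, glucose, iron and zinc transporters supply growth and division, and their RNA is set by cytokine and antigen receptor signals among others.

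Values are log2 intensities, and where a gene has several probe sets its brightest, on the mean over all 12 arrays, stands for it. Differences are leukemia minus thymocytes on this log2 scale. The test was limma's moderated statistic, and a gene is called changed, rose or fell where the p-value, adjusted by Benjamini-Hochberg over all 8251 genes, lay under 0.05. Over all genes, 5.41% were called higher and 11.9% lower, in sum 17.3%. Counts of calls in any class or list are to be read beside these shares. An adjusted p is from this limma fit unless another array set, covariate, block or probe set is named beside it, in which case it is from a separate limma fit of that kind, and for other probe sets of a gene from the fit over all 12422 probe sets. A group was near the control level where its mean lay under the 95th percentile of 19 control probe sets for non-mouse transcripts, which averaged 5.37 on leukemia arrays and 5.34 on thymocyte arrays. In both groups 44 members (31.4%) were near that level, against 2214 of all genes (26.8%). Another 2 members, Slc35a1 and Slc44a1, were near it in leukemia only, and 94 lay above it in both groups. A probe set near the control level bounds the transcript and does not show that it is absent. Array medians lay between 66.48 and 70.18 on the intensity scale.

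The tissue label was set against marker genes. All 11 T-lineage markers analysed lay above the control level in both groups, with an array mean of 9.74 to 10.54 in leukemias and 10.35 to 10.46 in thymocytes. Of these, Cd2 rose by 1.38, and Cd4 and Cd247 were lower, with differences of -1.89 and -0.93. The 15 macrophage markers, none of them past the limma test and 2 with an unadjusted p under 0.05, averaged 6.05 to 7.52 in leukemias and 6.05 to 6.32 in thymocytes. Their summed intensity was 1385 to 6592 in leukemias and 1433 to 1911 in thymocytes, highest in leukemias 3, 5 and 7, and Adgre1, Mrc1, Itgam, Marco and Cybb were near the control level. Of 9 granulocyte markers, 4 were lower in leukemia (44.4%, against 11.9% of all genes), led by S100a8 with a difference of -1.66. The summed intensity of the 9 was 495 to 629 in leukemias and 707 to 871 in thymocytes. Of 13 markers of thymic epithelium and stroma 1 rose and 1 fell, in sum 15.4%, against 17.3% of all genes. These were Epcam and Krt18, both near the control level in both groups, as were Foxn1, Sparc, Pdgfrb and Cdh5. The summed intensity of the 13 was 1007 to 1363 in leukemias and 1066 to 1197 in thymocytes. Erythroid markers summed to 1236 to 6826 in leukemias and 3585 to 7434 in thymocytes, with none of 8 past the limma test and 1 with an unadjusted p under 0.05. The part of these other cells in the results below was not tested, except where a value with the macrophage markers as a covariate is given. In such bulk samples, fewer cells of a type and less RNA per cell cannot be told apart.

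Few solute carrier genes differed between leukemia and thymocytes, and more of those that did were lower in leukemia. The test called 3 of 140 higher (2.14%), where 5.41% of all genes were called higher. It called 11 of 140 lower (7.86%), where 11.9% of all genes were called lower. In sum 14 members changed (10%), against 17.3% of all genes, and 126 did not pass. With the members near the control level in both groups left out, 3 of 96 were higher, against 6.84% of such genes, and 10 of 96 were lower, against 15.2% of them. An unadjusted p under 0.05 was found for 27 of 140 members (19.3%) and for 28.4% of all genes. The leukemias lay all above the thymocyte arrays for 3 members and all below for 8, in sum 7.86% of members against 12.3% of all genes. Quantile normalization gave 6 members higher and 9 lower, and centring each array on its median 4 higher and 8 lower. Over all genes, the main fit called 446 higher and 983 lower, quantile normalization 505 and 892, and centring 508 and 847. The split of calls thus depends on the scaling, for the members and for all genes.

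Sizes were small. The median difference over the members was 0.003, against 0.004 over all genes, and the median size regardless of sign was 0.09, against 0.13 over all genes. For 114 of the 140 members the difference was under 0.25 in size. Log2 differences of at least 1 in size that passed the test were found for 2 members, Slc38a2 and Slc12a2, the second near the control level, and for 2.65% of all genes. The 3 genes that rose were Slc25a4, Slc11a2 and Slc10a3. The 11 that fell were, from the largest difference, Slc12a2, Slc38a2, Slc35a1, Slc20a1, Slc44a1, Slc41a1, Slc4a2, Slc39a9, Slc7a6, Slc12a4 and Slc25a25.

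**Figure D1:**
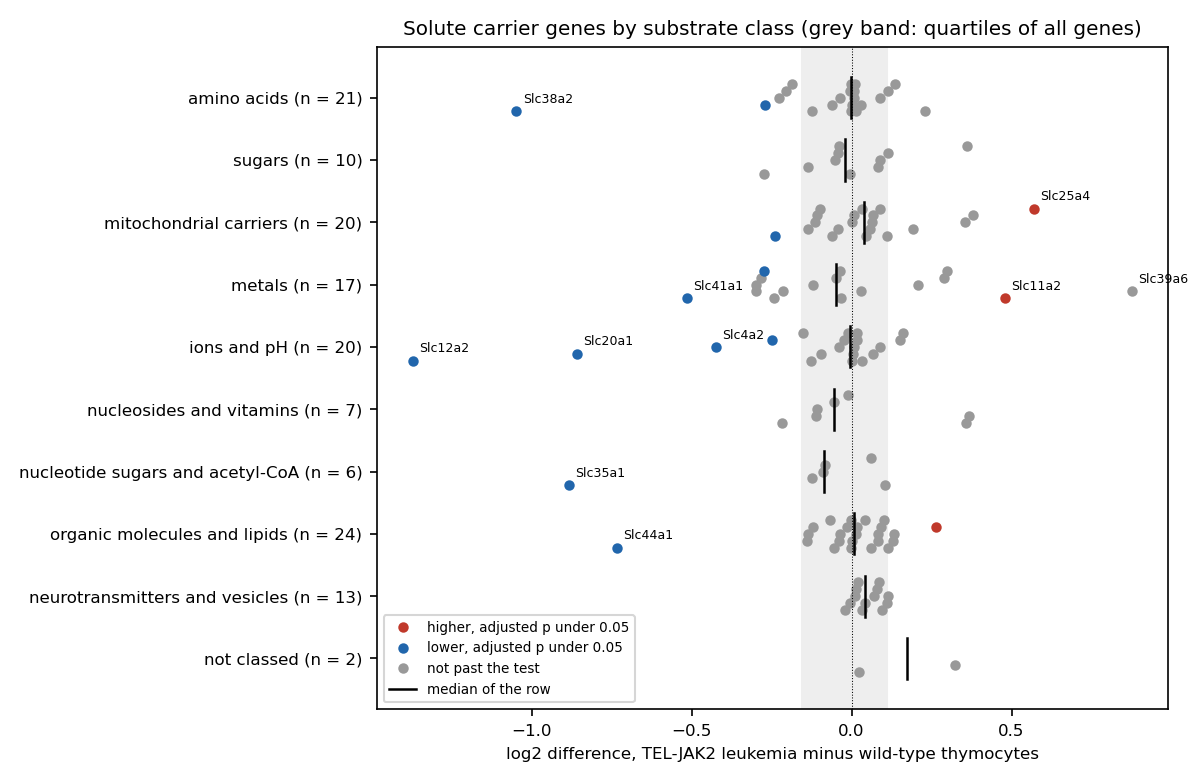
Log2 difference, TEL-JAK2 leukemia minus wild-type thymocytes, of each of the 140 solute carrier genes, in rows by substrate class. Each point is 1 gene, vertical bars are the median of a row, the grey band spans the quartiles of all 8251 genes, and most points lie inside or near that band, with 3 genes past the test to the right and 11 to the left.

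The promoters of 3 changed genes for which the sequence table holds an entry are printed next: Slc20a1 and Slc38a2, the largest decreases with both groups above the control level, and Slc25a4, the largest increase that passed. Each is the 250 bases before the annotated start, 5′ to 3′ on the strand of the gene, from RefSeq, build GRCm38.p6. The Slc20a1 window is chr2:129198523-129198772 on the plus strand and comes from 1 of its 2 annotated starts, the Slc38a2 window is chr15:96699729-96699978 on the minus strand, and the Slc25a4 window is chr8:46211063-46211312 on the minus strand. Capitals mark CACGTG, the E-box bound by Myc and related factors, in Slc20a1, GGGCGG, the GC box bound by Sp factors, read on the other strand in Slc38a2, and TGCGCNC, the core of the metal response element, in Slc25a4.
Slc20a1: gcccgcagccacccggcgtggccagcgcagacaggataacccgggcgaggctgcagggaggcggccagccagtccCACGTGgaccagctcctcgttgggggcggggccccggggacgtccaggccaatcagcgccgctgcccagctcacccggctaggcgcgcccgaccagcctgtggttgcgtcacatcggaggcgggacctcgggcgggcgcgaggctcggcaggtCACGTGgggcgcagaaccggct
Slc38a2: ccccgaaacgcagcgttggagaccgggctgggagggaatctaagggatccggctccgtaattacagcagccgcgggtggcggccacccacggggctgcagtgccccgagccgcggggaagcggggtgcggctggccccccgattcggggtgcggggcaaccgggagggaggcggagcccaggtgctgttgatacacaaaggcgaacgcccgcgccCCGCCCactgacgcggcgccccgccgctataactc
Slc25a4: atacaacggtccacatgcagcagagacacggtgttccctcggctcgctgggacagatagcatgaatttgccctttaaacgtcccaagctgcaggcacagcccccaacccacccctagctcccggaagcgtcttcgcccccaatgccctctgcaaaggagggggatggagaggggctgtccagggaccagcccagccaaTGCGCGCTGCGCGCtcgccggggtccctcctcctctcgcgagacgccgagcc
The first bases of the marked matches lie 175 and 22 bases before the start in Slc20a1, 35 in Slc38a2, and 52 and 45 in Slc25a4, where the 2 matches adjoin. These are matches of letters on either strand and do not show binding.

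The motifs were chosen with the results known and were counted in the 250 bases before the start on both strands. A promoter was found for 113 of the 140 members and for 6576 of all genes. CACGTG was present for 18 of 113 members (15.9%) and 9.93% of all genes, and among the 10 lower members with a promoter only Slc20a1 held it, at the printed start and not at its other annotated start. GGGCGG was present for 74 members (65.5%) and 58.9% of all genes, and for 8 of the 10 lower members. TGCGCNC was present for 26 members (23%), the same percentage as of all genes, and for 5 of the 10 lower members as well as for Slc25a4. The other form of the metal response core, TGCACNC, was present for 14 members (12.4%) and 12.8% of all genes. TTCNNNGAA, the element that STAT factors bind, which act downstream of Jak kinases, was present for 6 members (5.31%) and 7.39% of all genes. None of the 11 changed members with a promoter held TTCNNNGAA in this window. TGATGNAA, the core of the amino acid response element, was present for 5 members (4.42%) and 2.63% of all genes. No match says only that these letters are not in this window.

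Among 21 genes of amino acid and peptide transporters, 0 rose and 2 fell (9.52%, against 11.9% of all genes called lower). Near the control level in both groups were 6, and the median difference was -0.001. In the class 4 members had an unadjusted p under 0.05. Slc38a2 (94433_at, chromosome 15) encodes SNAT2, which takes up small neutral amino acids, glutamine included, with sodium. Its log2 values were 6.25 at the lowest, 6.87 at the median and 7.50 at the highest in leukemias, against 7.99, 7.79, 8.08 and 7.89 in the 4 thymocyte arrays. All leukemias lay below all thymocyte arrays, with leukemias 2 and 4 closest to them, at 7.50 and 7.45, and leukemias 1 and 7 farthest, at 6.32 and 6.25. The mean was 6.89 ± 0.46 in leukemias (SD, n = 8) and 7.94 ± 0.13 in thymocytes (SD, n = 4), which is 2.07-fold lower in leukemia (difference -1.05, SE 0.21, limma adjusted p = 0.00361). The 3 other probe sets of Slc38a2 were near the control level in both groups, carry a suffix for possible cross-hybridization and gave differences of 0.04, 0.10 and 0.07, and the mean over all its probe sets gave -0.21 with a limma adjusted p of 0.0839.

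Slc7a6 (99863_at), the light chain y+LAT2, fell by a small amount. It was 5.31 at the lowest, 5.40 at the median and 5.60 at the highest in leukemias, against 5.79, 5.82, 5.66 and 5.46 in thymocytes. Thymocyte array 4, at 5.46, lay inside the range of the leukemias, and the means were 5.41 ± 0.10 and 5.68 ± 0.16 (SD, n = 8 leukemias and n = 4 thymocyte arrays; difference -0.27, SE 0.08, limma adjusted p = 0.032). A second probe set, 100417_at, was near the control level in both groups and gave a difference of -0.52 (limma adjusted p = 0.008). The call of Slc7a6 was lost without leukemia 5 or 8, without thymocyte array 1, 2 or 3 (differences -0.23 to -0.28), and after quantile normalization or centring.

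The other genes of the heterodimeric and glutamine transporters did not pass. Slc3a2, the heavy chain, was 8.66 ± 0.25 in leukemias and 8.79 ± 0.11 in thymocytes (SD, n = 8 and n = 4), with a limma adjusted p of 0.581. Its partner Slc7a5 (LAT1) was 8.08 ± 0.35 in leukemias and 7.94 ± 0.06 in thymocytes (limma adjusted p = 0.650). The glutamine and neutral amino acid exchanger Slc1a5 (ASCT2) was 7.34 ± 0.28 in leukemias and 7.53 ± 0.07 in thymocytes (limma adjusted p = 0.406). Slc7a7, the y+LAT1 light chain, had a difference of -0.23 (limma adjusted p = 0.209). The cationic amino acid carrier Slc7a1 and the cystine-glutamate exchanger Slc7a11 were near the control level in both groups. Slc15a2, a proton-coupled peptide transporter, differed by 0.01 (limma adjusted p = 0.978). Slc38a1 and Slc43a1, other neutral amino acid transporters, were not analysed here.

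None of the 10 genes of the sugar transporter families 2, 5 and 37, among them the multivitamin transporter Slc5a6, passed the limma test, 1 had an unadjusted p under 0.05, and 2 were near the control level in both groups, with a median difference of -0.02. Slc2a1 (GLUT1), the widely expressed glucose carrier, was 5.96 ± 0.18 in leukemias and 5.87 ± 0.08 in thymocytes (SD, n = 8 and n = 4; limma adjusted p = 0.598). Slc2a3 (GLUT3), the high-affinity glucose carrier of lymphocytes and neurons, was 6.92 ± 0.29 in leukemias and 7.19 ± 0.16 in thymocytes, with 6 of 8 leukemias below every thymocyte array (limma adjusted p = 0.247). Slc37a4, the glucose-6-phosphate transporter of the endoplasmic reticulum, was 6.56 ± 0.30 in leukemias and 6.20 ± 0.03 in thymocytes. For Slc37a4 7 of 8 leukemias lay above every thymocyte array, and the limma adjusted p was 0.109. The leukemia values of Slc37a4 followed the kind of array title described below. Leukemias 1, 6, 7 and 8, without a 4-digit title number, were at 6.97, 6.83, 6.72 and 6.75. Each of them lay above all of leukemias 2 to 5, which have the number. Of these, leukemia 2 was lowest, at 6.08, and leukemia 4, at 6.24, was only just above the highest thymocyte array, at 6.23.

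Of 20 mitochondrial carriers of family 25, 1 rose and 1 fell, in sum 10%, against 17.3% of all genes. Near the control level in both groups was 1, and the median difference was 0.04. Slc25a4 (93084_at, chromosome 8) encodes ADP/ATP translocase 1, which exchanges matrix ATP for cytosolic ADP. Its values were 9.66 at the lowest, 9.97 at the median and 10.14 at the highest in leukemias, against 9.44, 9.41, 9.23 and 9.45 in thymocytes. All leukemias were above all thymocyte arrays, and the mean was 1.48-fold higher, at 9.95 ± 0.15 in leukemias and 9.38 ± 0.10 in thymocytes (SD, n = 8 and n = 4; difference 0.57, SE 0.09, limma adjusted p = 0.00055). Slc25a5, the ADP/ATP translocase 2, whose probe set carries a suffix for possible cross-hybridization, differed by 0.07 (limma adjusted p = 0.674).

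Slc25a25, a calcium-dependent carrier of ATP-Mg and phosphate, was 7.66 at the lowest, 7.75 at the median and 7.86 at the highest in leukemias, against 7.94, 7.88, 8.0 and 8.17 in thymocytes. The groups did not overlap, and the difference was -0.24 (SE 0.07, limma adjusted p = 0.0261). That call of Slc25a25 was lost without thymocyte array 3 or 4, among arrays with a 4-digit number in the title, after quantile normalization or centring, and with the macrophage marker score as a covariate (limma adjusted p = 0.0671). Slc25a20, the carnitine-acylcarnitine carrier, was 7.23 ± 0.33 in leukemias and 6.85 ± 0.07 in thymocytes, with 7 of 8 leukemias above every thymocyte array. Its limma adjusted p was 0.121, and 0.0139 without leukemia 1. The citrate carrier Slc25a1, the phosphate carrier Slc25a3 and the peroxisomal carrier Slc25a17 had differences of 0.09, 0.01 and -0.14, and none passed.

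The 17 metal transporters had larger differences than any other class by their median size regardless of sign, which was 0.27, against 0.13 over all genes. Of these, 1 rose and 2 fell, in sum 17.6%, against 17.3% of all genes. Near the control level in both groups were 4, and the median difference was -0.05. Slc11a2 (102642_at, chromosome 15) encodes DMT1, which carries ferrous iron out of endosomes after uptake through the transferrin receptor. Its values were 8.18 at the lowest, 8.29 at the median and 8.64 at the highest in leukemias, against 7.88, 7.94, 7.88 and 7.75 in thymocytes. The groups did not overlap, and Slc11a2 was 1.39-fold higher in leukemia (8.34 ± 0.17 against 7.87 ± 0.08, SD, n = 8 and n = 4; difference 0.48, SE 0.09, limma adjusted p = 0.00273). The other Slc11a2 probe set, 104451_at, gave 0.21 with a limma adjusted p of 0.587, and the mean of both gave 0.34 with 0.128.

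Slc41a1 (103547_at), a magnesium transporter of the plasma membrane, was 5.42 at the lowest, 5.74 at the median and 5.96 at the highest in leukemias, against 6.67, 6.21, 6.11 and 5.84 in thymocytes. Thymocyte array 4 lay inside the range of the leukemias. Slc41a1 was 1.43-fold lower in leukemia (difference -0.52, SE 0.14, limma adjusted p = 0.019), and the call was lost without thymocyte array 1 (-0.36) or 2 (-0.51).

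Of 7 zinc importers of family 39, 0 rose and 1 fell by the limma test (14.3%, against 11.9% of all genes called lower). Of the 7, 4 had an unadjusted p under 0.05, as had 28.4% of all genes. Slc39a9 (ZIP9) fell: it was 5.99 at the lowest, 6.31 at the median and 6.40 at the highest in leukemias, against 6.62, 6.53, 6.47 and 6.46 in thymocytes. The groups of Slc39a9 did not overlap, but the difference was small (-0.27, SE 0.08, limma adjusted p = 0.033), and the call was lost without leukemia 5 or thymocyte array 1, 2 or 3 and with the macrophage marker score as a covariate (limma adjusted p = 0.144). Slc39a6 (ZIP6), a zinc importer that STAT3 induces in zebrafish embryos, had the largest positive difference of all 140 members without passing the test. Its values were 6.20, 7.64, 7.11, 7.92, 7.11, 7.20, 6.37 and 7.13 in leukemias 1 to 8, against 6.59, 6.34, 6.28 and 5.61 in thymocytes. Leukemias 1 and 7 lay inside the thymocyte range and the other 6 leukemias above it. The difference of Slc39a6 was 0.88 (SE 0.29, limma adjusted p = 0.0502), and it passed without leukemia 1 (1.0, limma adjusted p = 0.0152) or 7 (0.98, limma adjusted p = 0.026). With the macrophage marker score as a covariate the difference of Slc39a6 was 1.09 (limma adjusted p = 0.0282).

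Other metal transporters did not pass. Slc39a1 (ZIP1) was 8.02 ± 0.15 in leukemias and 8.14 ± 0.08 in thymocytes (SD, n = 8 and n = 4; limma adjusted p = 0.375). Slc39a4, a zinc importer of the intestine measured by a possibly cross-hybridizing probe set, differed by 0.21 (limma adjusted p = 0.187), and Slc30a3, a zinc transporter of synaptic vesicles, by -0.04. The copper importer Slc31a1 (CTR1) differed by -0.05 (limma adjusted p = 0.877). Slc30a1 (ZnT1), the zinc exporter of the plasma membrane, Slc39a8 (ZIP8) and Slc30a9 were near the control level in both groups. Slc30a1 differed by 0.03. Slc39a8 differed by 0.30 (limma adjusted p = 0.0757), and by 0.43 with the macrophage marker score as a covariate (limma adjusted p = 0.00649). Slc30a9 differed by -0.30 (limma adjusted p = 0.0516) and passed in 6 of 25 alternatives. Slc11a1 (NRAMP1), the divalent metal pump of macrophage phagosomes, was 6.44 ± 0.47 in leukemias and 6.15 ± 0.17 in thymocytes (limma adjusted p = 0.429). The iron exporter Slc40a1 was not analysed here.

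Of 20 transporters of ions and pH, 0 rose and 4 fell (20%, against 11.9% of all genes called lower). Near the control level in both groups were 10, and the median difference was -0.0045. The 4 that fell were also the members with an unadjusted p under 0.05. Slc20a1 (103065_at, chromosome 2) encodes PiT1, a sodium-coupled phosphate importer, and its promoter is printed above. Its values were 7.17 at the lowest, 7.55 at the median and 7.86 at the highest in leukemias, against 8.66, 8.47, 8.51 and 7.82 in thymocytes. Only leukemia 4, at 7.86, lay above the lowest thymocyte array, which was array 4. The mean of Slc20a1 was 7.51 ± 0.24 in leukemias and 8.36 ± 0.37 in thymocytes (SD, n = 8 and n = 4), which is 1.81-fold lower in leukemia (difference -0.86, SE 0.16, limma adjusted p = 0.00205).

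Slc4a2 (100020_at, chromosome 5) encodes AE2, a chloride-bicarbonate exchanger that lowers the pH of the cytosol. It was 7.44 at the lowest, 7.60 at the median and 7.72 at the highest in leukemias, against 8.14, 8.0, 8.03 and 7.91 in thymocytes. The groups did not overlap, and Slc4a2 was 1.34-fold lower in leukemia (difference -0.42, SE 0.07, limma adjusted p = 0.00078). The erythrocyte exchanger of the same family, Slc4a1 (band 3), was 5.44 ± 0.11 in leukemias and 5.44 ± 0.20 in thymocytes.

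Slc12a4 (92450_at), which encodes the potassium-chloride cotransporter KCC1, was 7.61 at the lowest, 7.71 at the median and 7.87 at the highest in leukemias, against 8.03, 7.91, 8.02 and 7.87 in thymocytes. The highest leukemia lay just under the lowest thymocyte array, and the difference was -0.25 (SE 0.06, limma adjusted p = 0.0155). The call of Slc12a4 was lost without thymocyte array 1 or 3, after quantile normalization or centring, and with the macrophage marker score as a covariate (limma adjusted p = 0.0639). Slc12a2 (99500_at, chromosome 18), the sodium-potassium-chloride importer NKCC1 that works against KCC1 in setting cell volume, had the largest difference of all members on the log2 scale, but both groups were near the control level. Its values were 3.31 at the lowest, 3.41 at the median and 3.58 at the highest in leukemias, against 5.15, 4.73, 5.02 and 4.31 in thymocytes. The signal of Slc12a2 of each leukemia lay below that of each thymocyte array (difference -1.37, SE 0.12, limma adjusted p = 9.7e-06), and no fold is given since all these values lie below the control percentile.

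**Figure D2:**
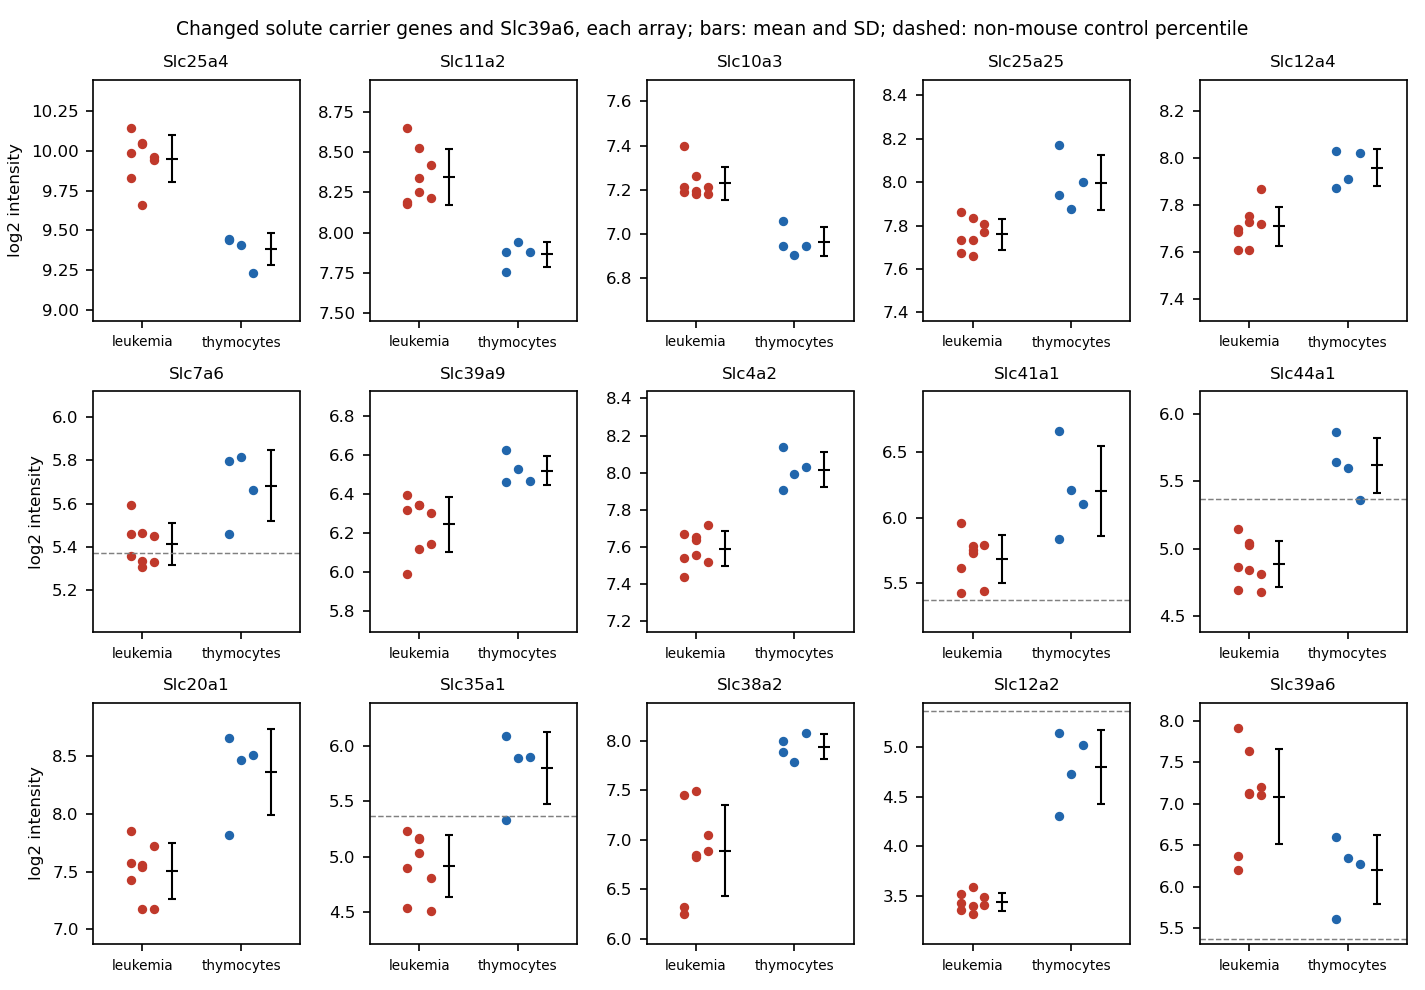
Log2 intensity of the 14 changed solute carrier genes and of Slc39a6 on each array, in 8 TEL-JAK2 leukemias (red, left) and 4 arrays of wild-type thymocytes (blue, right). Bars are the mean and SD of a group and the dashed line is the mean control percentile of the leukemia arrays, 5.37. Slc12a2 lies wholly below that line, and the leukemias of Slc35a1 and Slc44a1 lie below it while most thymocyte arrays do not.

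Of 6 transporters of nucleotide sugars and acetyl-CoA, 0 rose and 1 fell (16.7%, against 11.9% of all genes called lower). Near the control level in both groups were 3. Slc35a1 (104380_at, chromosome 4) carries CMP-sialic acid into the Golgi for sialylation of glycans. It was 4.51 at the lowest, 4.97 at the median and 5.23 at the highest in leukemias, against 6.09, 5.89, 5.90 and 5.33 in thymocytes. The groups did not overlap. Since the leukemia mean was near the control level, Slc35a1 is given as at least 1.35-fold lower, with the higher of the control percentile and the measured value taken on each leukemia array and set against the thymocyte mean (measured means 4.92 ± 0.28 in leukemias and 5.80 ± 0.33 in thymocytes, difference -0.88, SE 0.16, limma adjusted p = 0.00204). Slc35b1, an ATP/ADP exchanger of the endoplasmic reticulum, was 8.76 ± 0.10 in leukemias and 8.84 ± 0.07 in thymocytes (limma adjusted p = 0.470). Slc35d1, which carries UDP-sugars into the endoplasmic reticulum, has a letter outside the rule and lies outside the set of 140. It was 6.83 ± 0.47 in leukemias and 8.24 ± 0.29 in thymocytes (difference -1.41, SE 0.23, limma adjusted p = 0.00085). Of 13 genes with a solute carrier symbol outside the rule, Slc35d1 alone changed (7.69%, against 17.3% of all genes).

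Of 24 transporters of organic molecules, bile acids, fatty acids and choline, 1 rose and 1 fell, in sum 8.33%, against 17.3% of all genes. Near the control level in both groups were 11. Slc44a1 (97425_at, chromosome 4), a choline transporter that supplies phospholipid synthesis, was 4.68 at the lowest, 4.85 at the median and 5.14 at the highest in leukemias, against 5.87, 5.60, 5.36 and 5.64 in thymocytes. All leukemias lay below all thymocyte arrays. The leukemia mean was near the control level, so that Slc44a1 is at least 1.19-fold lower by the same bound (measured means 4.89 ± 0.17 in leukemias and 5.62 ± 0.21 in thymocytes, difference -0.73, SE 0.11, limma adjusted p = 0.00041).

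Slc10a3 (103218_at, chromosome X), placed by sequence in the bile acid transporter family, rose by a small amount. It was 7.18 at the lowest, 7.20 at the median and 7.40 at the highest in leukemias, against 7.06, 6.91, 6.95 and 6.94 in thymocytes. The groups did not overlap, and Slc10a3 was 1.2-fold higher in leukemia (difference 0.26, SE 0.06, limma adjusted p = 0.00743). Slc22a5 (OCTN2), the carnitine importer, differed by 0.13 (limma adjusted p = 0.360), and the fatty acid transporter Slc27a1 by -0.12 (limma adjusted p = 0.625).

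None of 7 transporters of nucleosides and vitamins and none of 13 of neurotransmitters and vesicles passed the limma test, where 17.3% of all genes did. An unadjusted p under 0.05 was found for 1 and 0 of them, and for 28.4% of all genes. Slc29a1 (ENT1), the equilibrative nucleoside transporter that also takes up nucleoside drugs, was 9.11 at the lowest, 9.55 at the median and 10.02 at the highest in leukemias, against 9.22, 9.27, 9.09 and 9.22 in thymocytes. All leukemias but number 7 were above every thymocyte array, and the difference of Slc29a1 was 0.36 (SE 0.14, limma adjusted p = 0.0984). Its other probe set, 161687_r_at, near the control level in both groups and possibly cross-hybridizing, gave 0.35 with a limma adjusted p of 0.039. Slc29a1 also passed with the mean of its probe sets and among arrays with a 4-digit number in the title. Without leukemia 7 the difference of Slc29a1 was 0.42 with a limma adjusted p of 0.028, and with the macrophage marker score as a covariate it was 0.52 with 0.0129. The reduced folate carrier Slc19a1 differed by -0.11 (limma adjusted p = 0.469). In the neurotransmitter family, the taurine importer Slc6a6 differed by 0.02 and the glycine importer Slc6a9 by 0.04, and the creatine importer Slc6a8 was near the control level in both groups. Families 50 and 66 are in no class. The sugar exporter Slc50a1 had a difference of 0.32 (limma adjusted p = 0.138) and the PQ-loop protein Slc66a2 one of 0.02, and neither passed. The nucleoside carrier Slc28a2 and the monocarboxylate carrier Slc16a3 were not analysed here.

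For most members the spread between arrays was larger in leukemias. The SD was larger over the 8 leukemias than over the 4 thymocyte arrays for 101 members (72.1%), and for 79.0% of all genes. The median SD of the members was 0.15 in leukemias and 0.10 in thymocytes, and that of all genes 0.17 in leukemias and 0.11 in thymocytes. In leukemia 11 members had an SD over 0.3, and in thymocytes 5.

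Leukemias 1 and 7 stood apart for several amino acid transporters. They had the lowest values of Slc38a2, at 6.32 and 6.25, and the highest of Slc7a5, at 8.62 and 8.53, while the other leukemias lay between 7.67 and 8.17 for Slc7a5. Thymocytes were at 7.96, 7.86, 7.94 and 8.01 for Slc7a5. Slc1a5 was 7.61 and 7.88 in leukemias 1 and 7, against at most 7.37 in the other leukemias and 7.48 to 7.63 in thymocytes. Slc2a3 was likewise highest in these leukemias, at 7.42 and 7.24, and Slc39a6 lowest, at 6.20 and 6.37. These arrays were picked for their values, and the pattern is a description without a test. Cell markers also differed on leukemias 1 and 7. Their T-lineage means were the lowest, at 9.74 and 9.97, against 10.09 to 10.54 in the other leukemias, and so was Cd4, at 7.88 and 8.24. Cd247, Thy1 and Cd8b1 were likewise lowest in these leukemias. Not all T-lineage markers followed: of the leukemias, Zap70 was highest in leukemia 1, at 11.13, and Cd3e lowest in leukemia 8, at 10.22. The stromal collagen gene Col3a1 was highest in leukemias 1 and 7, at 7.35 and 7.48, against at most 6.57 in the other leukemias and 6.30 to 6.62 in thymocytes. Dcn, a proteoglycan gene of stroma, was 5.71 and 6.30 in them, against at most 4.97 in the other leukemias and 4.63 to 6.04 in thymocytes. The mean of the 13 stromal markers was also highest in them, at 5.88 and 5.95, against at most 5.79 in the other leukemias. Other markers of that list differed: Col1a2 and Pdgfrb were highest in leukemia 5, at 8.14 and 5.95. Epcam was lowest in leukemias 1 and 7, at 4.16 and 4.23. Pdgfrb and Epcam were near the control level in both groups. The part of other cells in the pattern was not tested.

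Other members varied in single leukemias. Slc25a53, a mitochondrial carrier whose substrate is not established, was 8.27 in leukemia 5 and 6.85 to 7.50 in the other leukemias, against 6.68 to 7.02 in thymocytes. Slc11a1 was highest in leukemias 3, 5 and 7, at 6.58, 7.05 and 7.21, the arrays on which the mean of the macrophage markers was also highest, at 7.01, 7.34 and 7.52. Slc23a3, a member of the ascorbate transporter family, had the largest SD of all members in leukemias, 0.64, with values of 7.70 to 9.32 in leukemias and 7.86 to 8.37 in thymocytes. Its values followed the kind of array title described next: they were 8.37 to 9.32 on the arrays without a 4-digit title number, thymocyte array 4 included, and 7.70 to 8.12 on the arrays with one. The probe set of Slc23a3 may cross-hybridize, and its other probe set, 98800_at, gave a difference of -0.03.

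**Figure D3:**
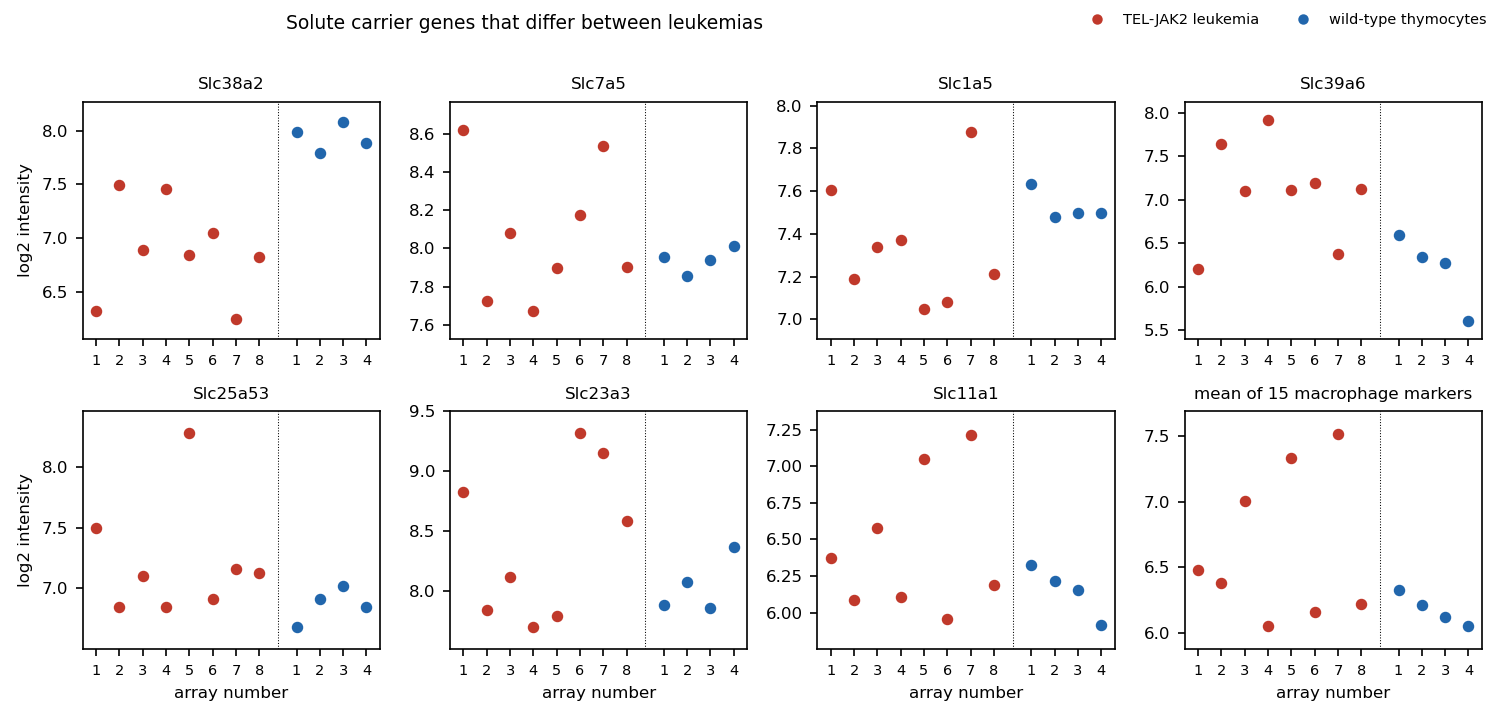
Log2 intensity on each array of 7 solute carrier genes and the mean of 15 macrophage markers, with leukemias 1 to 8 in red on the left of the dotted line and thymocyte arrays 1 to 4 in blue on the right. Leukemias 1 and 7 are lowest for Slc38a2 and Slc39a6 and highest for Slc7a5 and Slc1a5, and leukemias 3, 5 and 7 are highest for Slc11a1 and for the macrophage markers.

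The titles of 4 leukemias (2 to 5) and 3 thymocyte arrays (1 to 3) hold a 4-digit number, and those of leukemias 1, 6, 7 and 8 and thymocyte array 4 do not. The labels do not say what the number stands for. All 14 changed members kept their direction within each kind of title and with the kind of title as a block. They were called on these same arrays, so the kept direction is no independent support. Among arrays with the number, the difference was -0.78 for Slc38a2, -0.87 for Slc20a1, -0.90 for Slc35a1, -0.77 for Slc44a1 and 0.59 for Slc25a4. Among arrays without it, where thymocyte array 4 stands alone and its spread is taken from the fit, the difference was -1.28 for Slc38a2, -0.48 for Slc20a1, -0.55 for Slc35a1, -0.71 for Slc44a1 and 0.50 for Slc25a4. The differences of further members also depended on the kind of title: without the number the difference was -0.28 for Slc41a1, -0.14 for Slc12a4 and -0.05 for Slc7a6, and with it -0.50 for Slc41a1, -0.30 for Slc12a4 and -0.34 for Slc7a6. Slc25a25 had -0.41 without the number and -0.18 with it, Slc12a2 -0.92 without and -1.50 with it, Slc4a2 -0.32 without and -0.45 with it, and Slc39a9 -0.24 without and -0.27 with it. The arrays without the number gave 0 members and 4 genes past the limma test. With the block, 5 members were higher and 12 lower, beside 531 and 1093 of all genes. Slc39a6 passed with the block, with a difference of 1.06 (limma adjusted p = 0.00332).

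Other genes of transport were compared in the same way, from lists by name or function. Of 25 ATP-binding cassette (ABC) transporters, 2 rose and 4 fell, in sum 24%, against 17.3% of all genes. Near the control level in both groups were 10, and the median difference was -0.08. Abca1, which exports cholesterol, was 5.24 ± 0.33 in leukemias and 6.42 ± 0.44 in thymocytes (SD, n = 8 and n = 4; limma adjusted p = 0.00107). Abcb9, a peptide transporter of lysosomes, was 9.39 ± 0.26 in leukemias and 8.81 ± 0.10 in thymocytes (limma adjusted p = 0.00634). Abcf2, a family member that lacks membrane domains, was lower, with a difference of -0.35 (limma adjusted p = 0.00314). Of 10 P-type ion pumps 0 rose and 1 fell (10%, against 11.9% of all genes called lower). It was the copper pump Atp7a, with 7.44 ± 0.38 in leukemias and 8.11 ± 0.41 in thymocytes (limma adjusted p = 0.0441).

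None of 8 partner proteins of carriers passed the limma test, although 1 had an unadjusted p under 0.05, and the monocarboxylate transporter partner Emb had a difference of 0.36 (limma adjusted p = 0.0948). None of 11 genes of iron, zinc and copper handling passed either, although 2 had an unadjusted p under 0.05 and the median difference was 0.21. Ireb2, an RNA-binding regulator of iron genes, had a difference of -0.48 (limma adjusted p = 0.0741), and Hfe one of 0.41 (limma adjusted p = 0.109). The transferrin receptor Tfrc, which feeds iron to Slc11a2, had one of 0.42 (limma adjusted p = 0.181). Of 11 genes of the amino acid response, which cells switch on when amino acids run short, 3 rose and 0 fell. That is 27.3% called higher, against 5.41% of all genes. The median difference was 0.10, and 8 genes did not pass. Among these, Atf4 (-0.10), Asns (0.06), Ddit3 (-0.07), Atf3 (-0.04) and Psat1 (-0.16) differed little. The others, Trib3 (0.27), Phgdh (0.15) and Eif4ebp1 (0.10), were near the control level in both groups. Ddit4, an inhibitor of the kinase complex mTORC1, was 9.76 ± 0.25 in leukemias and 8.48 ± 0.18 in thymocytes (difference 1.28, SE 0.13, limma adjusted p = 2.8e-05). Cebpb, a transcription factor, was 7.03 ± 0.39 in leukemias and 5.53 ± 0.16 in thymocytes (difference 1.5, SE 0.19, limma adjusted p = 0.00013). The third gene that rose, Nupr1, was near the control level in both groups. Slc38a2, which this response is known to induce, is among the transporters that fell.

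**Figure D4:**
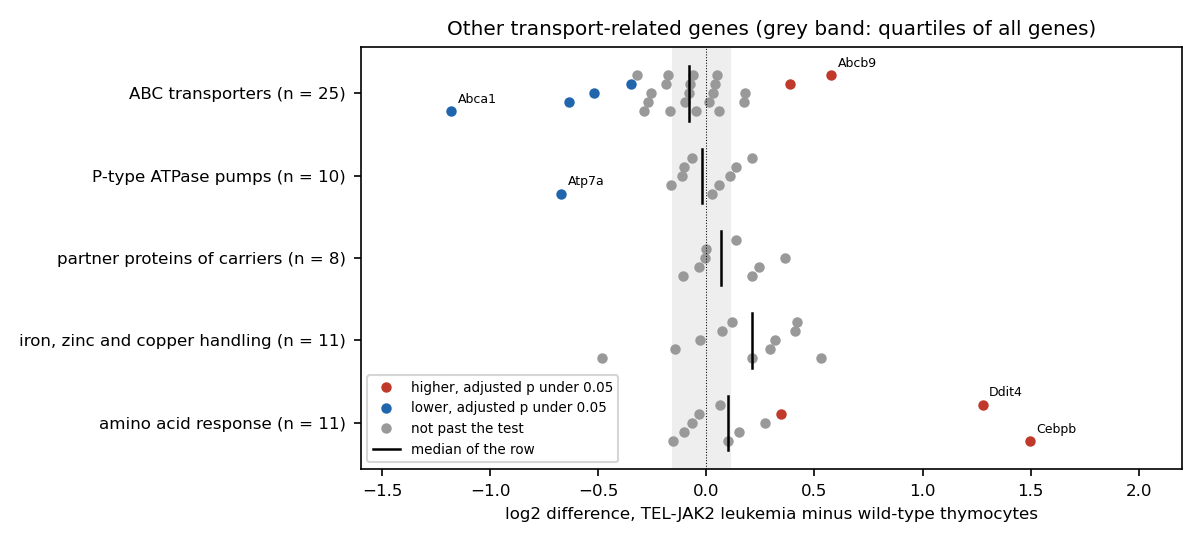
Log2 difference, TEL-JAK2 leukemia minus wild-type thymocytes, of genes in 5 lists other than solute carriers, 1 point per gene and vertical bars at the median of each list. The grey band spans the quartiles of all 8251 genes, and Cebpb and Ddit4 lie farthest right and Abca1 farthest left.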

How the data were processed

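RNA of thymus cell suspensions was hybridized to Affymetrix arrays, 8 of TEL-JAK2 leukemia and 4 of wild-type thymocytes, per the labels. The deposited intensities, 1 per probe set and array on a linear scale, are the authors' RMA output, as the submitters' processing notes name it, in a version that no source used here gives. Of 12488 probe sets, 66 were Affymetrix controls and 12422 were analysed. The platform annotation names 1 gene for 10833, several for 396 and none for 1193. There were 8251 genes, each represented by its brightest probe set on average over all arrays, and 2073 had more than 1.

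Intensities, all above 0, were converted to log2 without an offset. The 2 groups were fitted in R 4.3.3 with limma 3.58.1 by lmFit and eBayes, without covariates, and two-sided p-values were adjusted by Benjamini-Hochberg over all genes. The fit was first tested on simulated data. Members, classes and lists were chosen with earlier results of these data known, and marker lists and motifs likewise. Named genes are those past the test, the 10 brightest members, a list of known transporters, and up to 3 per other list with the largest moderated statistic. All 11 genes of the amino acid response are also named. Slc37a4, Slc25a20, Slc25a53, Slc39a8, Slc30a9, Slc50a1, Slc66a2, Slc5a6 and Slc23a3, the last also among the 10 brightest, and the markers Col3a1, Dcn and Cd4 by array were singled out after their values were seen. Leukemia values are given as lowest, median and highest where all 8 are in the plot. A further solute carrier gene is not reported here. Alternatives are other normalizations, filters, variance models, left-out arrays, title number, probe-set choice and thresholds. The arrays without a 4-digit title number alone and the macrophage marker score as a covariate were added after seeing the data.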

Additional observations from a re-analysis of the deposited data

Results flagged for a closer look

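Of 106 groups of values tested for named members, 9 held an array that stood far from the others of its group, where chance gives about 1 in 20. Some members, Slc25a53 and Slc50a1 among them, were named after their values were seen, so the 9 cannot be scored against that rate. In leukemias, Slc10a3 was 7.40 in leukemia 4, the highest, Slc25a53 was 8.27 in leukemia 5, the highest, and Slc39a1 was 7.69 in leukemia 6, the lowest. In thymocytes, Slc1a5 was highest in array 1 at 7.63, Slc25a4 lowest in array 3 at 9.23, and Slc30a1, near the control level, lowest in array 2 at 3.13. Thymocyte array 4 was the highest for Slc25a5, at 8.50, and the lowest for Slc31a1, at 6.83, and Slc50a1, at 7.50.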

How the results depend on the processing

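No called result changed direction under the alternatives run. Direction could not change with filters by level, a trend and robust variance, other tests or thresholds, which keep the differences of the main fit. The other alternatives reuse the arrays on which the calls were made. Of the 14 calls, 11 were kept after quantile normalization, 11 after centring, 12 with the mean of all probe sets and 11 with the macrophage marker score as a covariate. Quantile normalization gave 6 members higher, arrays with a 4-digit title number 7, the title number block 5 and the macrophage marker score 7, against 3. In the same order, 505, 544, 531 and 395 of all genes were higher, against 446. Restriction to brighter genes (60 members) left 5 members lower, beside 772 genes lower. An adjusted p under 0.01 left 6 members lower, with 259 genes higher and 557 lower. Array weights, a weight estimated for each array, gave 10 members higher and 22 lower, and 1039 genes higher and 1597 lower. An exact rank-sum test gave 3 members higher and 8 lower, beside 347 genes higher and 670 lower, and lost Slc20a1, Slc41a1 and Slc7a6. A test against a 1.5-fold change (limma's treat) kept 0 members higher and 1 lower, and 63 genes higher and 39 lower. Arrays without the title number gave 0 members higher or lower, and 1 gene higher and 3 lower. Leaving out 1 array in turn gave 3 to 5 members higher and 7 to 12 lower, and 304 to 483 genes higher and 626 to 1135 lower. The 5 members higher came without leukemia 1, 6 or 7, the 7 members lower without thymocyte array 1 or 3, the fewest genes higher without thymocyte array 3 (304), and fewer genes lower by over 1.5 times without thymocyte array 1 or 2 (626 and 655). The cause of these shifts was not tested. No paired analysis was possible because the labels give no replicate numbers shared by the groups. Genes near the control level carry little signal over background, which limits what can be seen for 44 members.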
